A study of Mus musculus with 42 samples.

Results

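The genes described here encode enzymes of the citrate cycle and the pyruvate dehydrogenase complex with its kinases and phosphatases. They also encode enzymes of the malate-aspartate shuttle and of the breakdown of branched-chain amino acids. They are 39 of the 13809 genes in the table of normalized counts, found by symbol from a list of 40. The remaining name, Pc (pyruvate carboxylase), has no row of that symbol. RefSeq gives Pc as a synonym of Pcx, so Pcx is given beside the 39 genes and stays out of their counts. All libraries are RNAseq of TA (tibialis anterior) muscle from 4-month-old male mice, 42 in all, which the labels place in 2 sets of 22 and 20. Set 1 holds WT muscle, muscle of Sesn1SkM-Tg mice, which carry human Sesn1 under the muscle creatine kinase (MCK) promoter, and muscle of Sesn2SkM-Tg mice, which express Sesn2 from a Tet-regulated promoter driven by MCK-tTA. Set 2 holds WT muscle and muscle of Sesn1KO mice (Sesn1-/-), whose line was supplied by another laboratory. Each genotype was studied in the basal state and 3 days after immobilization of the right hindlimb, and WT muscle of set 2 also 3 days after denervation, in which a segment of the sciatic nerve was cut out. There were 4 libraries in a group, except 3 for immobilized WT muscle of set 1 and 3 for immobilized Sesn1SkM-Tg muscle. The methods describe the WT controls as littermates, and the labels give both transgenic lines 1 WT group. Replicates were taken as separate samples of a group, and where they do not stand for separate animals the p-values measure only the spread between these samples.

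As background, pyruvate enters the mitochondrion and is turned into acetyl-CoA by pyruvate dehydrogenase, which its kinases switch off and its phosphatases switch on. Acetyl-CoA is oxidized in the citrate cycle, which feeds the respiratory chain, and pyruvate carboxylase refills the cycle with oxaloacetate. Muscle is a main site of the first steps of leucine, isoleucine and valine breakdown, whose committed step, the branched-chain keto acid dehydrogenase complex, is controlled by a kinase and a phosphatase in the same way. The malate-aspartate shuttle, with malate dehydrogenase and aspartate aminotransferase in the cytosol and in the mitochondrion, carries reducing equivalents across the inner membrane.

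The library sums ran from 722430 to 1276769 normalized counts. Read depth is not known from these values, and no counting error is given. A gene was tested with limma on log2(value + 1) when it reached 1 in at least 1 library of the set, and was called when its adjusted p was below 0.05 and its log2 fold change reached 0.25 in size. All 39 genes passed this filter in both sets, with a lowest value of 0.822. All changes below are log2 fold changes on the log2(value + 1) scale, which understates the change of low genes such as Pdp2. The sums fell after treatment, from a median of 1081405 in basal WT muscle of set 2 to 790955 after denervation and 988798 after immobilization. Setting all libraries to an equal sum therefore moved the median log2 fold change of all genes from -0.03 to 0.35 in denervated muscle, and turned the genes called from 3792 higher and 3775 lower into 6353 higher and 1886 lower. In immobilized WT muscle of set 1 the same step turned 2037 higher and 1981 lower into 4087 higher and 741 lower, with a median of 0.28. The changes below were computed on the deposited scale, where the median of all genes lay near 0. Among basal WT libraries of set 1, replicate 4 stood apart, with a summed share of the 39 genes of 1.29% of the library against 0.873% for the lowest of the group. The targeted genes moved as labelled in basal muscle. Sesn1 was higher in Sesn1SkM-Tg muscle by 1.61, Sesn2 higher in Sesn2SkM-Tg muscle by 1.66 and Sesn1 lower in Sesn1KO muscle, with a log2 fold change of -1.39. After immobilization only Sesn2 in Sesn2SkM-Tg muscle was called of these 3 checks (log2 fold change 1.86, SE 0.22, adjusted p = 0.000201 in limma). Sesn1 in immobilized Sesn1SkM-Tg muscle stood at 51.1, 46.9 and 23.0 against 15.2, 12.4 and 13.1 in WT muscle, without overlap and not called in limma (log2 fold change 1.43, SE 0.25, adjusted p = 0.0915). Sesn1 in immobilized Sesn1KO muscle stood at 37.3, 27.7, 19.4 and 19.6 against 30.7, 41.0, 53.1 and 39.3 in WT muscle, with overlapping groups and no call in limma (log2 fold change -0.66, SE 0.17, adjusted p = 0.0695), and reached the basal WT values of 28.1, 22.5, 29.7 and 22.8. Nnt, which encodes a mitochondrial transhydrogenase lost in the C57BL/6J strain, was also higher in Sesn1KO (2.07) and Sesn2SkM-Tg (1.57) basal muscle than in WT muscle. In immobilized muscle Nnt was between 53.9 and 76.5 in Sesn1KO and between 14.6 and 18.3 in WT libraries. A difference in strain background between these genotypes and their controls cannot be told apart from the sestrin genotype.

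In basal muscle the genes covered a wide range of levels. Per kilobase of annotated exon (union of exons, GENCODE M21, GRCm38), Mdh1 was the highest in set 2, with a mean of 263 normalized counts per kb, followed by Mdh2 with 238 and Pdha1 with 225. Cs, citrate synthase, the enzyme that starts the cycle and a usual marker of mitochondrial content, stood at 161 per kb, close to Idh3b with 159 and Idh3a with 158. The branched-chain genes were lower, with Bckdha, the E1 alpha subunit of the complex, at 80.2 per kb and most others between 3.74 (Mccc1) and 49.0 (Bckdk). Ppm1k, the phosphatase of the branched-chain complex, had 3.22 per kb, and Pdp2, the minor pyruvate dehydrogenase phosphatase here, had 0.841 per kb against 22.7 for Pdp1.

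The promoter windows of these genes were searched for 2 motifs, because most of the genes fell together after treatment. RefSeq windows of GRCm38.p6, from 250 bases before to 50 bases after a transcription start, were found for 36 of the 39 genes and for Pcx. The binding motif of the estrogen-related receptors, TNAAGGTCA, was searched on both strands and was in 0 of these 37 genes, against 387 of 27025 genes (1.43%) with a window. The motif of nuclear respiratory factor 1, written as GCGC, any base, then TGCGC, was searched in the same way and was in 4 of 37 genes (10.8%), against 1402 of 27025 (5.19%). No window held both motifs. The match of Dld starts 40 bases into the transcribed part and its sequence is not shown. The other matches lie before the start, beginning at position -17 for Sucla2, -66 for Hibadh and -69 for Pccb, counted from the first transcribed base. Their 250 upstream bases are printed from 5′ to 3′ along the gene, with the motif in capitals, to show where the match sits.
Sucla2, chr14:73552536-73552785, plus strand: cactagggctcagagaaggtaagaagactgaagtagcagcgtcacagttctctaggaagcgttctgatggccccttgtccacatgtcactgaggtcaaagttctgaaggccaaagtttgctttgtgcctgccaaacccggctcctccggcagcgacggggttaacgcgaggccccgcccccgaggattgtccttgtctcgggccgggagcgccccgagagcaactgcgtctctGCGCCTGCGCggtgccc
Hibadh, chr6:52640301-52640550, minus strand: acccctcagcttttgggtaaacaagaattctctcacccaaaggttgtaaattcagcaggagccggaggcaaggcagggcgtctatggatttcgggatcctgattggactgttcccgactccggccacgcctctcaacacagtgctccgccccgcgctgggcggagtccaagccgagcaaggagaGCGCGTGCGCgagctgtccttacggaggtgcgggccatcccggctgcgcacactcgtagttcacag
Pccb, chr9:101034885-101035134, minus strand: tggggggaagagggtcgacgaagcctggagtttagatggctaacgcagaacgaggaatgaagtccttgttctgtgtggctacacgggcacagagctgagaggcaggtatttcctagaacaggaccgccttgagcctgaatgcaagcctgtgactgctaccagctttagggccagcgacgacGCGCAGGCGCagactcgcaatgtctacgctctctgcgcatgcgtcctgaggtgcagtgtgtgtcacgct
Sucla2 is a subunit of the ATP-forming succinyl-CoA ligase, Hibadh a dehydrogenase of valine breakdown and Pccb a subunit of propionyl-CoA carboxylase. These 3 genes had log2 fold changes of -0.87, -0.85 and -0.65 after denervation.

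Denervation lowered nearly the whole group. Of the 39 genes, 36 were called lower, 1 was called higher and 2 were not called, while 27.7% of the 13629 genes tested were called lower, 27.8% higher and 55.5% in either direction. The median log2 fold change of the 39 genes was -0.87 against -0.03 for all genes. In 36 of the 39 genes every denervated library lay below every basal library, and in 37 of 39 (94.9%) the groups did not overlap in either direction, against 53.7% of all genes. Their summed values made up 1.09% ± 0.064 (SD, n = 4) of a library in basal WT muscle and 0.703% ± 0.028 (n = 4) after denervation. Bulk RNA does not tell fewer muscle fibre nuclei or cells from less RNA per cell. With equal library sums 30 of the 39 genes were still called lower and 3 higher, and the median of the 39 genes lay 0.76 below that of all genes, close to the 0.84 on the deposited scale.

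**Figure D1:**
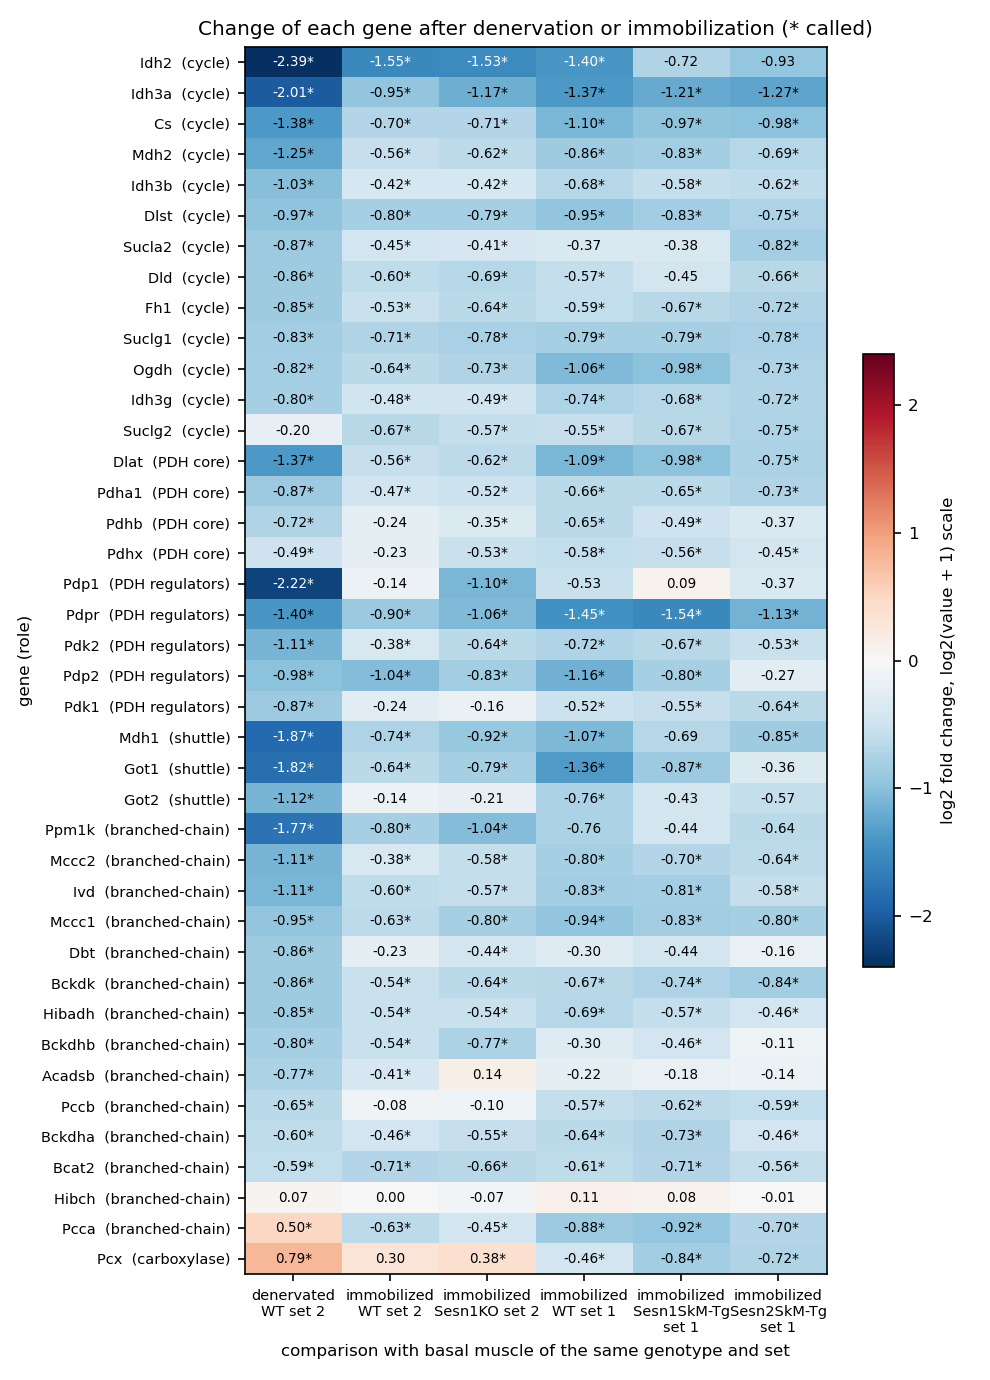
Log2 fold change (log2(value + 1) scale) of the 39 genes and Pcx (rows, by role) in the 6 comparisons of denervated or immobilized with basal muscle (columns); blue is lower, red is higher, and a star marks genes called by limma. Nearly every row is blue in every column, Idh2 (-2.39) and Pdp1 (-2.22) are lowest after denervation, and Pcca and Pcx are higher there.

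Among the 13 cycle genes, 12 were called lower after denervation, with a median of -0.87. Idh2, the NADP-dependent isocitrate dehydrogenase of the mitochondrion, fell most. It stood at 206, 212, 212 and 94.8 normalized counts in the 4 basal libraries of WT muscle and at 31.7, 25.9, 36.1 and 35.8 after denervation. The groups did not overlap, although 1 basal library lay far below the other 3, and the log2 fold change was -2.39 (SE 0.20, adjusted p = 3.43e-09) in limma. Idh3a, the catalytic subunit of the NAD-dependent isocitrate dehydrogenase, stood at 833, 849, 754 and 770.5 in basal and 185, 192, 211 and 207 in denervated muscle. That is a mean of 199 ± 12.1 against 802 ± 46.5 (SD, n = 4 each), a fold of 0.248, with a log2 fold change of -2.01 (SE 0.08, adjusted p = 7.11e-14). Its partner subunits had log2 fold changes of -1.03 (Idh3b) and -0.80 (Idh3g). Cs had values of 932, 965, 942 and 887 in basal and 337, 317, 389 and 396 in denervated muscle. The lowest basal library, 887, lay far above the highest denervated one, 396, and the log2 fold change was -1.38 (SE 0.10, adjusted p = 2.31e-10). Mdh2, the last enzyme of the cycle, changed by -1.25. The subunits of the 2-oxoglutarate dehydrogenase complex changed by -0.82 (Ogdh), -0.97 (Dlst) and -0.86 (Dld), and Fh1, fumarase, by -0.85.

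The succinyl-CoA ligase is made of Suclg1 with either Sucla2, in the ATP-forming enzyme, or Suclg2, in the GTP-forming one. Suclg1 and Sucla2 were called lower after denervation, with log2 fold changes of -0.83 and -0.87. Suclg2 was the 1 cycle gene not called. Its values were 84.2, 98.6, 89.6 and 67.4 in basal and 73.1, 74.6, 73.5 and 72.3 in denervated muscle, which lay within the basal range, with a log2 fold change of -0.20 (SE 0.09, adjusted p = 0.0823). Under equal library sums this value was 0.27 and was called higher (limma, adjusted p = 0.018). Immobilized WT muscle of the same set had 55.6, 52.7, 51.5 and 50.9, below every basal and every denervated library, and Suclg2 was called lower there (-0.67).

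All 4 genes of the pyruvate dehydrogenase core were called lower after denervation. Dlat, the E2 acetyltransferase, changed by -1.37, Pdha1 and Pdhb, the E1 subunits, by -0.87 and -0.72, and Pdhx, the E3-binding protein, by -0.49. All 5 regulators were called lower as well, with a median of -1.11. Pdp1, the catalytic subunit of the main phosphatase that activates the complex in muscle, stood at 93.0, 109, 109 and 97.7 in basal and 20.1, 18.9, 21.2 and 24.5 in denervated WT muscle. The groups lay far apart (21.2 ± 2.43 against 102 ± 8.23, SD, n = 4 each), with a log2 fold change of -2.22 (SE 0.11, adjusted p = 1.01e-12). Pdpr, the regulatory subunit of this phosphatase, had 170.2, 179, 152 and 138 in basal and 49.99, 59.3, 67.1 and 63.8 in denervated muscle, and changed by -1.40. Pdp2, the other phosphatase, was close to the floor of the scale with 5.503, 3.77, 5.33 and 4.55 in basal and 1.83, 1.25, 1.68 and 3.19 in denervated muscle. It was called lower (-0.98), and the highest denervated library still lay below the lowest basal one. The kinase Pdk2 had 505, 450.0, 454 and 495 in basal and 215, 193, 241 and 234 in denervated muscle. The kinase Pdk1 had 72.1, 76.9, 70.3 and 59.9 in basal and 32.6, 32.6, 43.2 and 43.4 in denervated muscle. Neither kinase overlapped between the groups, and the log2 fold changes were -1.11 and -0.87. The 2 kinases and the 3 phosphatase genes among the 39 were thus called lower. Pdk4, a kinase outside the 39 genes, was not called after denervation, with 407, 543, 490.1 and 655 against 509, 377, 351 and 298 in basal muscle (log2 fold change 0.46, SE 0.27, adjusted p = 0.155, limma).

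The shuttle enzymes Mdh1 and Got1, which work in the cytosol, were among the genes that fell most. Mdh1 stood at 652, 751, 656 and 638 in basal and 171, 164, 189 and 216 in denervated muscle, a log2 fold change of -1.87. Got1 stood at 519.8, 551, 525 and 479 in basal and 154, 135, 137 and 160.1 in denervated muscle, a log2 fold change of -1.82. Got2, the mitochondrial aminotransferase, changed by -1.12. All 3 were called.

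Of the 14 branched-chain genes, 12 were called lower after denervation, with a median of -0.82 over the 14. Ppm1k, which activates the branched-chain complex, stood at 19.6, 21.9, 23.9 and 12.2 in basal and 5.40, 4.58, 5.21 and 4.23 in denervated muscle. The groups did not overlap and the log2 fold change was -1.77 (SE 0.17, adjusted p = 1.60e-08). Bckdk, the kinase that inactivates the complex, stood at 199, 181, 179 and 165 in basal and 93.1, 98.2, 98.3 and 107 in denervated muscle, a log2 fold change of -0.86. The subunits of the complex changed by -0.60 (Bckdha), -0.80 (Bckdhb) and -0.86 (Dbt). Bckdhb had 26.6, 26.6, 29.9 and 19.4 in basal and 12.6, 11.9, 15.997 and 16.7 in denervated muscle, without overlap. Bcat2, the mitochondrial aminotransferase that takes off the amino group, changed by -0.59. Further down the pathway the leucine enzymes Ivd, Mccc1 and Mccc2 changed by -1.11, -0.95 and -1.11, the valine enzyme Hibadh by -0.85 and Acadsb, which acts on isoleucine, by -0.77.

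Hibch and Pcca departed from this pattern. Hibch, a hydrolase of valine breakdown, was not called in any of the 6 comparisons with basal muscle, with log2 fold changes between -0.065 and 0.11. Under equal library sums it was called higher after denervation (0.53) and in immobilized WT muscle of set 1 (0.44). Pcca, the biotin-carrying subunit of propionyl-CoA carboxylase, stood at 52.5, 54.4, 49.2 and 49.5 in basal and 69.8, 72.8, 71.3 and 79.5 in denervated muscle. Every denervated library lay above every basal one, with a log2 fold change of 0.50 (SE 0.12, adjusted p = 0.00143). Immobilized muscle of the same set had 32.4, 36.4, 28.1 and 35.3, all below the basal libraries (-0.63). Pccb, the other subunit of the same enzyme, was called lower after denervation (-0.65) and not called after immobilization in set 2 (-0.081). The 2 subunits of the carboxylase therefore changed in opposite directions after denervation. Under equal library sums Pccb was no longer called after denervation, while Pcca stayed higher at 0.97.

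Pcx, pyruvate carboxylase, is the gene given beside the list. It stood at 56.6, 52.2, 53.9 and 64.8 in basal and 92.3, 90.7, 105 and 109 in denervated WT muscle and was called higher (0.79). Immobilized WT muscle of set 2 had 63.2, 83.1, 68.9 and 67.1, a log2 fold change of 0.30 that was not called. In set 1 Pcx was called lower after immobilization in all 3 genotypes, with log2 fold changes of -0.46 in WT, -0.84 in Sesn1SkM-Tg and -0.72 in Sesn2SkM-Tg muscle, whereas it was called higher in Sesn1KO muscle (0.38). The difference between the sets was not tested, since the values are comparable only within a set.

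**Figure D2:**
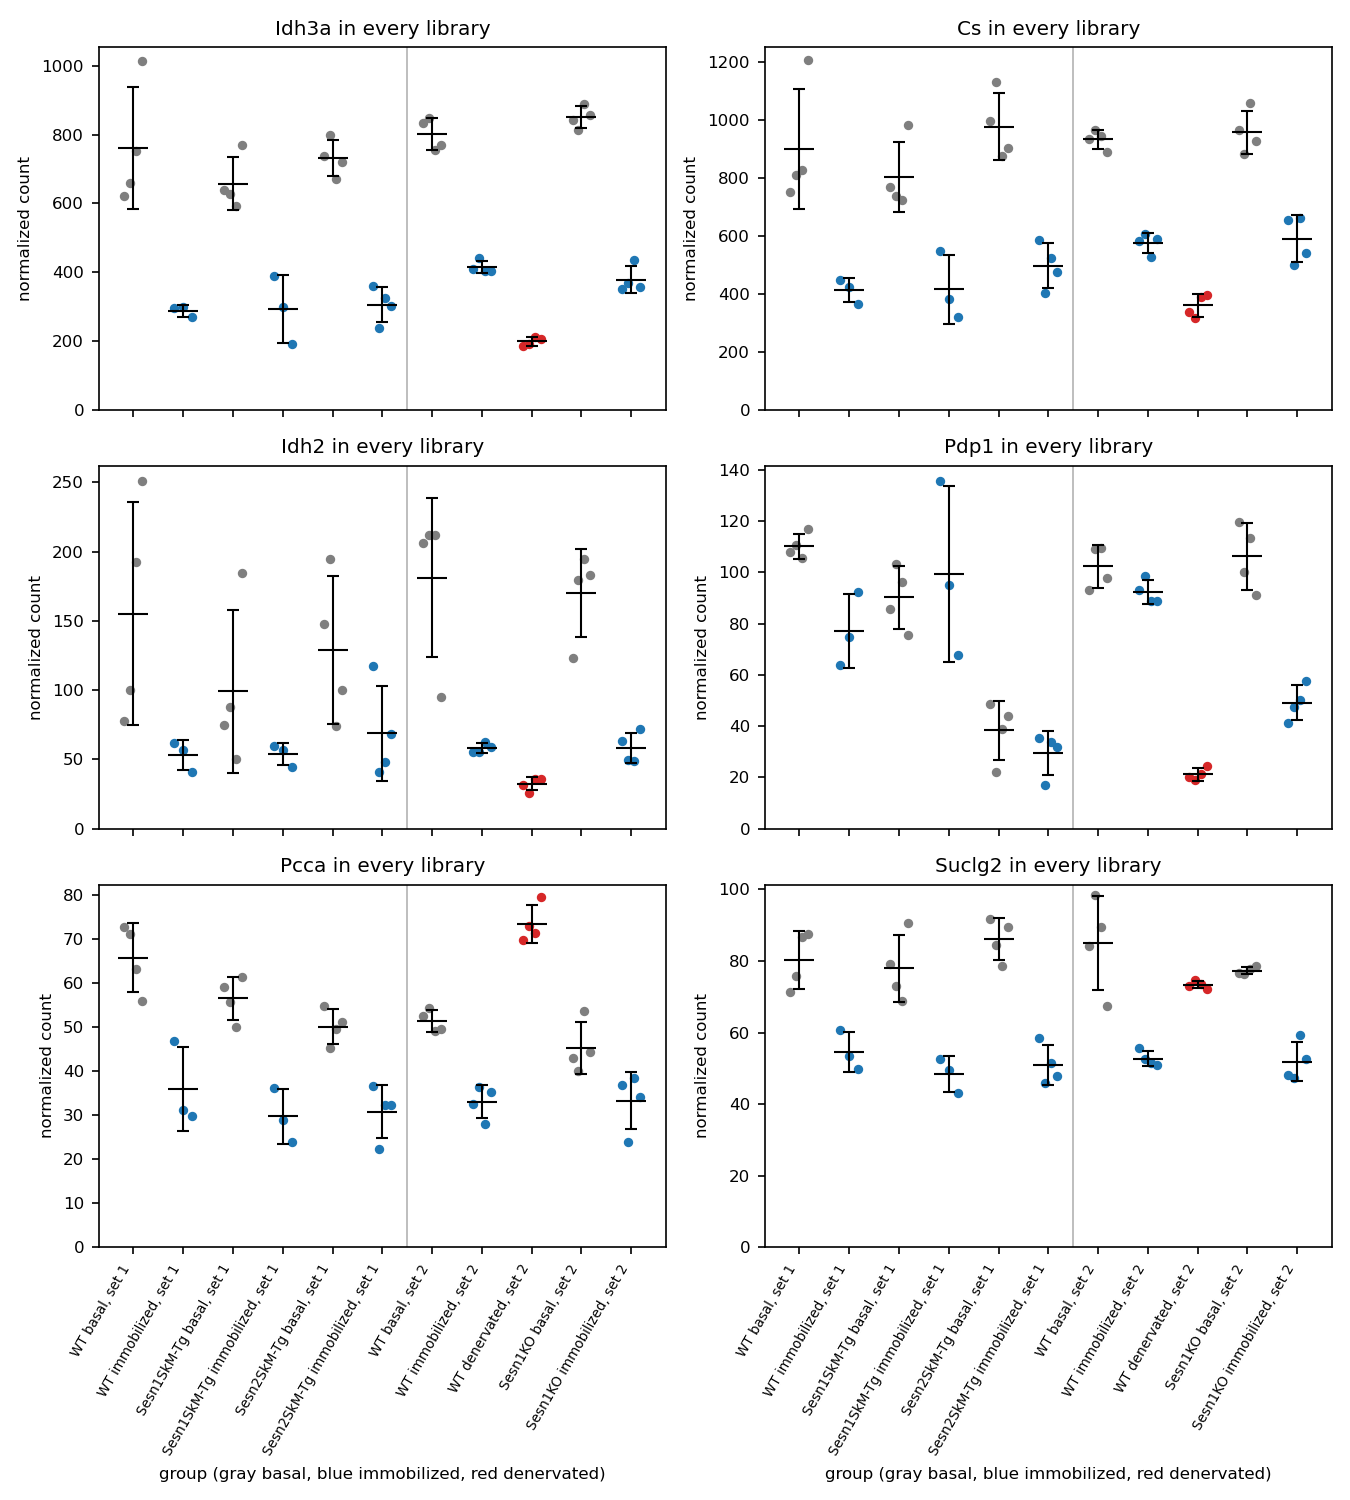
Normalized counts (y axis, linear, from 0) of Idh3a, Cs, Idh2, Pdp1, Pcca and Suclg2 in every library (points) of the 11 groups (x axis), with mean and SD as bars and a line between the sets. Idh3a and Cs are lower in all immobilized and denervated groups. Pdp1 is low in denervated WT muscle, in immobilized Sesn1KO muscle and in both Sesn2SkM-Tg groups, and Pcca is above basal only in denervated muscle.

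Immobilization also lowered most of these genes, and in each of its 5 comparisons none of the 39 genes was called higher. In WT muscle of set 2, 31 genes were called lower, with a median of -0.54, against 17.7% of all genes called lower, 16.2% higher and 33.9% in either direction. In WT muscle of set 1, 32 genes were called lower, with a median of -0.72, against 14.5% of all genes called lower, 14.9% higher and 29.3% in either direction. In Sesn1SkM-Tg muscle 29 genes were called lower, with a median of -0.68, against 16.5% of all genes lower, 18.2% higher and 34.7% in either direction. In Sesn2SkM-Tg muscle 28 were, with a median of -0.64, against 15.7% lower, 15% higher and 30.7% in either direction. In Sesn1KO muscle 34 were, with a median of -0.62, against 19.9% lower, 17.2% higher and 37.1% in either direction. These 5 comparisons share no libraries. In all 5, 22 of the 39 genes (56.4%) were called lower, against 772 of 13571 genes tested in both sets (5.69%). Where basal and immobilized values of a genotype are set against each other, basal comes first. Under equal library sums 11 genes were called lower in all 5, against 2.47% of all genes. The counts in single comparisons were 28 and 32 in set 2 and 19 (with 1 gene higher), 19 and 16 in set 1. Of these 5 comparisons, all genes called under this step are given above only for WT muscle of set 1. The single counts of the other comparisons are therefore not set against all genes. Leaving out replicate 3 of immobilized Sesn1SkM-Tg muscle lowered the count for this genotype from 29 to 19.

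The 22 genes were Cs, Idh3a, Idh3b, Idh3g, Ogdh, Dlst, Suclg1, Suclg2, Fh1 and Mdh2 of the cycle, Pdha1, Dlat, Pdk2 and Pdpr of pyruvate dehydrogenase, and Bcat2, Bckdha, Bckdk, Ivd, Mccc1, Mccc2, Hibadh and Pcca of the branched-chain pathway. None of the 3 shuttle genes was among them. Idh3a was among the 3 genes with the largest change in all 5 comparisons. Its immobilized values were 410.1, 441, 404 and 403 in WT muscle of set 2, where basal libraries were between 754 and 849. In Sesn1KO muscle it went from 843, 812, 889.7 and 857 to 350.5, 369.9, 435 and 358. Basal and immobilized libraries were separate in both genotypes, with log2 fold changes of -0.95 and -1.17. In set 1 it went from 620.2, 659.7, 753 and 1013 to 296, 300.02 and 269 in WT muscle (-1.37). In Sesn1SkM-Tg muscle it went from 639.6, 628, 594 and 769.5 to 389, 297 and 192 (-1.21). In Sesn2SkM-Tg muscle it went from 739, 798, 671 and 721 to 359, 237, 326 and 302 (-1.27). No immobilized library reached the lowest basal library of its genotype.

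Cs was also called lower in every genotype. In set 2 its immobilized values were 582, 604, 525 and 587 in WT muscle, and it went from 965, 880.4, 1056 and 925 to 655, 500.4, 660.1 and 541 in Sesn1KO muscle. In set 1 it went from 751, 809, 826 and 1205 to 446, 423 and 366 in WT muscle and from 767, 735, 724 and 980.4 to 548, 381 and 318 in Sesn1SkM-Tg muscle. In Sesn2SkM-Tg muscle it went from 994, 1129.6, 873 and 902 to 585, 401, 523 and 476. The groups did not overlap in any genotype, and the log2 fold changes were -0.70, -0.71, -1.10, -0.97 and -0.98 in that order. Ogdh, the E1 subunit of the 2-oxoglutarate complex, stood at 846, 775, 716 and 1069.6 in basal and 479.6, 432 and 372 in immobilized Sesn1SkM-Tg muscle. In WT muscle of set 1 it stood at 770.4, 878, 982 and 1298 against 531, 452 and 408, and in Sesn2SkM-Tg muscle at 974, 983, 889.5 and 996 against 656, 514, 556 and 594. In set 2 it stood at 1017, 991, 894 and 869 against 616, 655, 532 and 613 in WT muscle and at 942, 957, 1033 and 1000.5 against 552, 524, 598 and 711 in Sesn1KO muscle. Denervated WT muscle had 483, 538, 593 and 522. All treated libraries lay below the basal ones of their group, with log2 fold changes after immobilization between -1.06 and -0.64.

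Idh2 was less even. In set 2 it fell to 55.5, 55.5, 62.6 and 59.1 in immobilized WT muscle and from 123, 179, 195 and 183 to 62.9, 49.5, 48.7 and 71.7 in Sesn1KO muscle, both called (-1.55 and -1.53). In set 1 its basal values spread widely, with 78.0, 99.95, 192 and 250.6 in WT, 74.8, 87.4, 50.04 and 184 in Sesn1SkM-Tg and 148, 195, 73.8 and 100.3 in Sesn2SkM-Tg muscle. After immobilization they were 61.7, 56.6 and 40.6 in WT, 59.3, 56.9 and 44.4 in Sesn1SkM-Tg and 117, 41.0, 47.7 and 68.6 in Sesn2SkM-Tg muscle. It was called in WT muscle (log2 fold change -1.40, SE 0.42, adjusted p = 0.0172) and was not called in Sesn1SkM-Tg (-0.72) or Sesn2SkM-Tg muscle (-0.93), where basal and immobilized libraries overlapped. The genotype difference in this effect was not called either (limma, adjusted p = 0.9999 for Sesn1SkM-Tg and 0.951 for Sesn2SkM-Tg). The call in WT muscle was lost without replicate 4 of the basal group and without replicate 3 of the immobilized group, with a limma adjusted p of up to 0.0936.

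Of the regulators, Pdpr fell most in set 1. In WT muscle it went from 145, 187, 192 and 136 to 99.7, 42.6 and 48.7 (log2 fold change -1.45, SE 0.42, adjusted p = 0.0135). In Sesn1SkM-Tg muscle it went from 178, 145, 117 and 175 to 73.0, 60.1 and 31.0 (log2 fold change -1.54, SE 0.42, adjusted p = 0.00752). In Sesn2SkM-Tg muscle it went from 140.2, 35.1, 175 and 199 to 70.3, 42.7, 51.1 and 47.6 (log2 fold change -1.13, SE 0.39, adjusted p = 0.0315). In WT muscle the call was lost without replicate 2 or 3 of the immobilized group, and in Sesn1SkM-Tg muscle without replicate 3 of the immobilized group. In Sesn2SkM-Tg muscle 1 basal library, at 35.1, lay below all 4 immobilized ones, and 6 of 8 fits that left out 1 library lost the call. In set 2 Pdpr went to 89.4, 87.2, 79.5 and 83.8 in WT muscle and from 162, 151, 174 and 153 to 83.4, 61.7, 78.0 and 82.1 in Sesn1KO muscle, both called (-0.90 and -1.06). Pdk2 was called lower in all 5 comparisons, with immobilized values of 364, 429.6, 332 and 343 in WT muscle of set 2. In Sesn1KO muscle it went from 488, 485, 430.5 and 501 to 259, 312, 296 and 355. In set 1 it went from 369, 405, 369.8 and 619 to 278, 294 and 216 in WT muscle. These groups did not overlap. In Sesn1SkM-Tg muscle Pdk2 went from 383, 366, 418 and 523 to 305, 275 and 214 and in Sesn2SkM-Tg muscle from 521, 627, 457 and 442 to 385, 281, 392 and 360.0. The 5 log2 fold changes lay between -0.72 and -0.38, and under equal library sums only that of Sesn1KO muscle stayed called. Fits that left out 1 library lost the Pdk2 call in 3 of 8 in Sesn2SkM-Tg muscle. They lost it in 1 of 7 in WT muscle of set 1 and in 1 of 7 in Sesn1SkM-Tg muscle. In each of these 3 genotypes of set 1, 2 of the other alternatives lost the call, equal library sums among them.

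Pdk1, a kinase that is known to respond to hypoxia, changed less. It was called lower in WT (-0.52), Sesn1SkM-Tg (-0.55) and Sesn2SkM-Tg muscle (-0.64) of set 1, and in neither genotype of set 2 (-0.24 in WT and -0.16 in Sesn1KO). Its values in set 1 were 74.2, 79.4, 79.2 and 58.1 against 59.1, 48.8 and 43.5 in WT, 75.6, 66.2, 63.7 and 66.3 against 53.2, 47.2 and 38.6 in Sesn1SkM-Tg, and 65.3, 52.1, 71.1 and 71.8 against 45.7, 37.0, 39.9 and 42.3 in Sesn2SkM-Tg muscle, basal and immobilized. In set 2 immobilized WT muscle had 63.2, 54.7, 56.6 and 60.01, and Sesn1KO muscle had 69.3, 66.2, 68.7 and 69.7 against 53.7, 45.9, 78.9 and 71.2. In WT muscle of set 1 replicate 4 of the basal group lay below the highest immobilized library, while the transgenic groups did not overlap. All 3 calls of Pdk1 were lost with equal library sums. The WT call was also lost when only the compared groups were fitted and without replicate 3 of the immobilized group, and the Sesn1SkM-Tg call without replicate 3 of its immobilized group. Pdp2 was called lower in every genotype but Sesn2SkM-Tg. Its call in Sesn1SkM-Tg muscle was lost with equal library sums, without replicate 4 of the basal group and without replicate 3 of the immobilized group. It went from 3.34, 3.70, 7.77 and 5.81 to 1.99, 1.24 and 1.76 in WT muscle of set 1 and to 2.21, 2.35, 1.05 and 1.79 in WT muscle of set 2. It went from 2.57, 3.44, 2.56 and 6.16 to 1.94, 1.87 and 1.02 in Sesn1SkM-Tg muscle, from 2.43, 1.68, 2.48 and 2.63 to 1.90, 0.901, 2.12 and 2.17 in Sesn2SkM-Tg muscle and from 2.56, 3.43, 5.21 and 2.76 to 0.822, 1.704, 1.79 and 1.71 in Sesn1KO muscle. These are the lowest levels of the whole group, so its fold changes (-1.16, -1.04, -0.80, -0.27 and -0.83) are the most compressed by the pseudocount.

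In the branched-chain pathway, Bckdk was called lower in all 5 comparisons, with log2 fold changes between -0.84 and -0.54. It went from 161, 169, 152 and 217 to 111, 117 and 97.9 in WT muscle of set 1 and to 129.5, 115, 129.7 and 124 in WT muscle of set 2. It went from 171, 149, 167 and 204 to 122, 100.1 and 88.4 in Sesn1SkM-Tg muscle and from 201, 257, 188 and 191 to 127, 101, 119.6 and 117 in Sesn2SkM-Tg muscle. In Sesn1KO muscle it went from 214, 192, 178 and 188 to 116, 104, 142 and 132, and in none of the 5 did the groups overlap. Ppm1k, the opposing phosphatase, was called in set 2, with immobilized values of 9.96, 11.4, 9.54 and 10.9 in WT muscle (-0.80) and a change from 14.8, 19.1, 20.4 and 16.5 to 6.57, 6.995, 9.58 and 9.30 in Sesn1KO muscle (-1.04). In set 1 it was not called. It had 15.0, 21.8, 20.2 and 10.5 against 8.48, 9.83 and 9.36 in WT muscle (-0.76), 12.3, 16.3, 10.5 and 9.92 against 9.04, 12.5 and 5.49 in Sesn1SkM-Tg muscle (-0.44), and 13.8, 5.55, 12.5 and 12.2 against 9.003, 3.22, 7.18 and 7.50 in Sesn2SkM-Tg muscle (-0.64). Pcca was called lower in all 5. It went from 72.8, 71.0, 63.3 and 55.9 to 46.9, 31.1 and 29.7 in WT muscle of set 1, from 59.0, 55.8, 49.999 and 61.2 to 36.3, 29.0 and 23.9 in Sesn1SkM-Tg muscle and from 54.7, 45.2, 49.5 and 51.1 to 36.5, 22.3, 32.2 and 32.2 in Sesn2SkM-Tg muscle. In Sesn1KO muscle it went from 43.0, 39.98, 53.6 and 44.3 to 36.8, 23.9, 38.4 and 34.1. The groups did not overlap, and the log2 fold changes lay between -0.92 and -0.45. Acadsb and Dbt were each called in 1 of the 5 comparisons, Acadsb in WT muscle of set 2 (-0.41) and Dbt in Sesn1KO muscle (-0.44), and Got2 in WT muscle of set 1 only (-0.76).

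**Figure D3:**
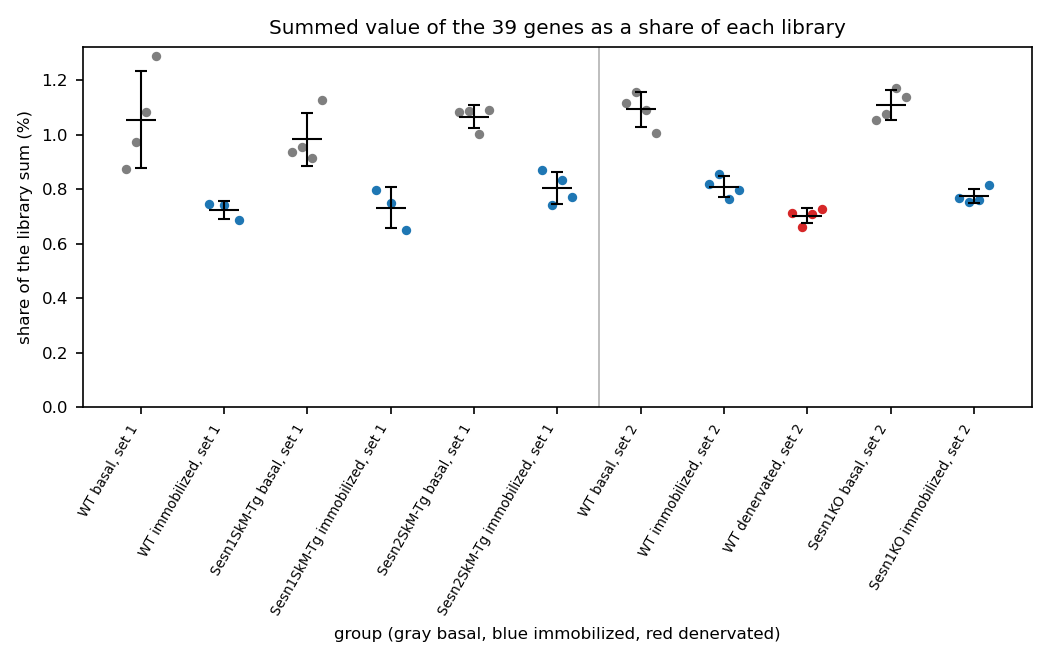
Summed normalized counts of the 39 genes as a percent of all values of a library (y axis, from 0), for each library (points) of the 11 groups (x axis), with mean and SD as bars. Every immobilized and denervated library lies below every basal library of its own genotype and set, from 1.09% to 0.703% on average in denervated WT muscle, and basal WT muscle of set 1 spreads most.

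Summed over the 39 genes, the share of a library went from 1.09% ± 0.064 to 0.809% ± 0.039 in WT muscle of set 2 and from 1.11% ± 0.055 to 0.775% ± 0.027 in Sesn1KO muscle (SD, n = 4 each). In set 1 it went from 1.05% ± 0.179 (n = 4) to 0.724% ± 0.032 (n = 3) in WT muscle. It went from 0.983% ± 0.097 (n = 4) to 0.733% ± 0.075 (n = 3) in Sesn1SkM-Tg muscle and from 1.07% ± 0.042 to 0.804% ± 0.059 (n = 4 each) in Sesn2SkM-Tg muscle. The members of a group varied unequally. The median coefficient of variation of the 39 genes was 22.1% in basal WT muscle of set 1 and between 7.64% and 19.9% in the other groups. Markers of muscle fibres (Acta1, Ckm, Mb, Myh1, Myh2 and Myh4, 6 of 6 measured) were lower in sum in WT muscle. The sum went from between 100246 and 109220 in basal WT muscle of set 2 to between 37198 and 49347 after denervation and between 95125 and 99761 after immobilization, and in WT muscle of set 1 from between 92887 and 115076 to between 56575 and 70384. In Sesn1KO muscle the basal sums, between 91417 and 105239, lay within the immobilized ones, between 75597 and 109817. Single markers differed in direction. All 6 fell after denervation, while in immobilized WT muscle of set 2 Ckm fell (-0.51), Myh1 (0.53) and Myh2 (1.12) rose, and Myh4 (-0.37), Mb (-0.22) and Acta1 (0.15) were not called. Slow-fibre markers (5 of 5 measured) summed to at most 82.0 in any library. Leukocyte markers (5 of 6 measured, Adgre1 without a row) summed to between 35.8 and 53.0 in basal and between 168 and 339 in immobilized WT muscle of set 1, and to between 31.0 and 132 in basal, 99.8 and 193 in immobilized and 41.7 and 109.6 in denervated WT muscle of set 2. Fibroblast markers (4 of 4) summed to between 311 and 734 in basal and 718 and 1306 in immobilized WT muscle of set 1, and to between 400.2 and 611 in basal, 420.1 and 1274 in immobilized and 261 and 434 in denervated WT muscle of set 2. Endothelial markers (3 of 3) summed to between 129.6 and 185 in basal and 162 and 197 in immobilized WT muscle of set 1, and to between 205 and 261.2 in basal, 109.9 and 181 in immobilized and 100.5 and 129 in denervated WT muscle of set 2. Schwann cell markers (3 of 3) summed to between 4.63 and 9.85 in basal and 11.8 and 33.8 in immobilized WT muscle of set 1, and to between 14.8 and 25.4 in basal, 7.49 and 18.4 in immobilized and 3.19 and 5.502 in denervated WT muscle of set 2. The part of these cell types in the fall of the 39 genes was not tested.

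Denervated and immobilized WT muscle of set 2 were also compared directly. Of the 39 genes, 28 were called lower in denervated than in immobilized muscle, 2 higher and 9 not called, against 18.4% of all genes lower, 20.5% higher and 38.9% in either direction. The median log2 fold change was -0.42, against -0.02 for all genes. This count rested on the scale more than the others, since equal library sums left 13 lower and 4 higher, with a median of -0.08 against 0.26 for all genes. All genes called under this step are not given for this comparison, so these counts are not set against them. Genes that stayed called lower under equal sums included those that differed most here. Pdp1 had a log2 fold change of -2.08, with denervated values of 20.1, 18.9, 21.2 and 24.5 and immobilized values of 93.0, 98.7, 88.8 and 88.8, the latter close to the basal 93.0, 109, 109 and 97.7. Got1, Mdh1, Idh3a, Got2 and Ppm1k followed with -1.17, -1.12, -1.06, -0.98 and -0.97. Immobilized muscle had Mdh1 at 387, 385, 402 and 438 and Got1 at 308, 357, 317 and 344, between the basal and the denervated levels. All 3 shuttle genes and all 4 pyruvate dehydrogenase core genes were called lower in denervated muscle, but only 9 of the 13 cycle genes and 8 of the 14 branched-chain genes were. Pcca (log2 fold change 1.13, SE 0.12, adjusted p = 3.23e-07) and Suclg2 (log2 fold change 0.47, SE 0.09, adjusted p = 0.000407) were the 2 genes called higher in denervated muscle, and both were also called higher under equal sums. Among the 9 genes not called were Pdp2 (0.055), Bcat2 (0.12), Suclg1 (-0.11), Ogdh (-0.18) and Dlst (-0.18).

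**Figure D4:**
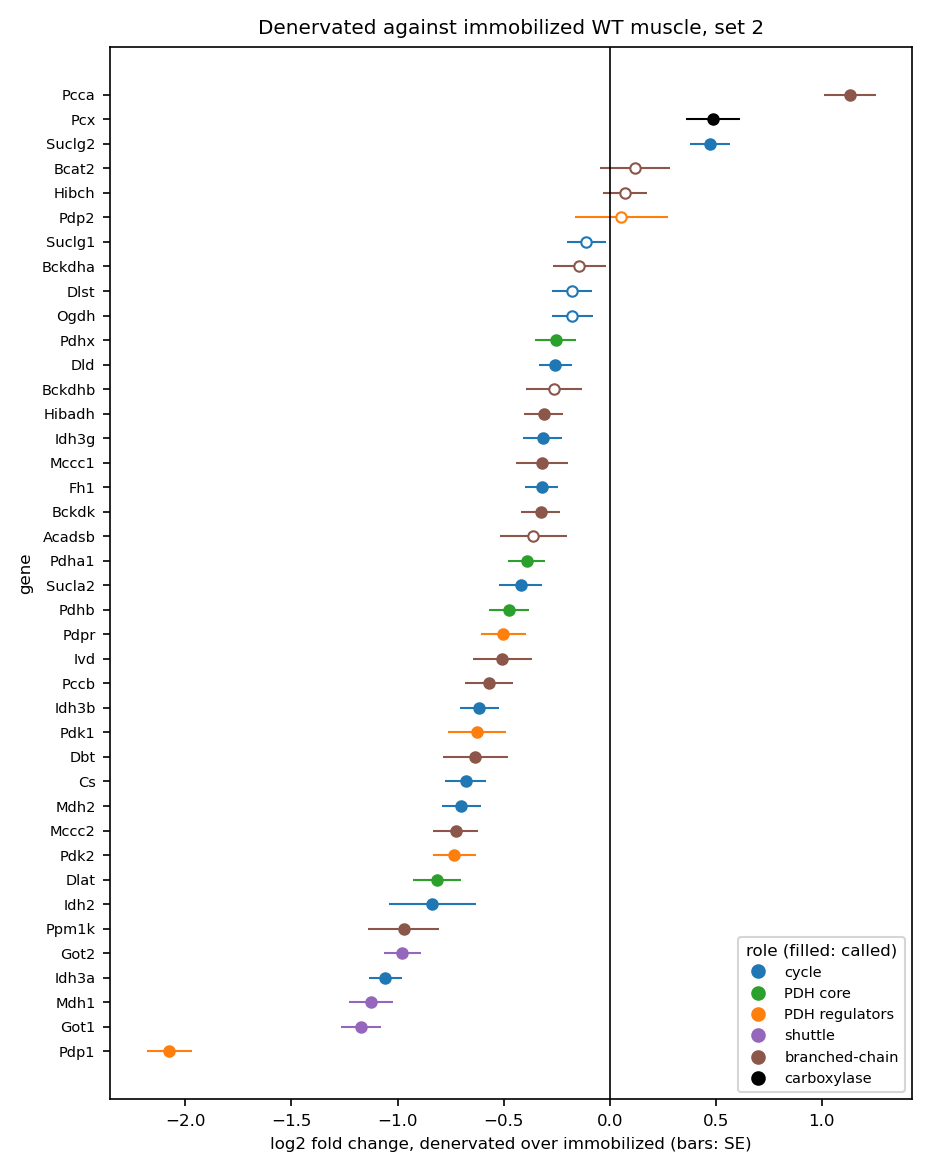
Log2 fold change of denervated over immobilized WT muscle of set 2 (x axis, bars are SE of the limma fit) for the 39 genes and Pcx (y axis), colored by role, filled when called. Pdp1 at -2.08 stands far to the left, the shuttle genes follow near -1, and Pcca at 1.13, Pcx and Suclg2 lie to the right of 0.

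Few of these genes were called between genotypes, and Pdp1 was the one called most often. In Sesn1SkM-Tg muscle 0 of the 39 genes were called against WT muscle in limma, in the basal state (0.0292% of all genes called) or after immobilization (0.0073%), and 0 reached an unadjusted p under 0.05 in either, against 497 and 417 of all 13705 genes. The median differences were -0.10 and -0.06 (log2). In Sesn1KO basal muscle 0 genes were called (0.147% of all genes, 0.088% lower) and 1 had an unadjusted p under 0.05, against 632 of all 13629 genes, with a median difference of 0.04. Immobilized Sesn1KO muscle had 1 gene called, Pdp1, against 0.947% of all genes, and 4 with an unadjusted p under 0.05, against 1917 of all genes. In Sesn2SkM-Tg muscle 2 genes were called in the basal state, Pdp1 and Bckdhb, against 2.5% of all genes (1% lower and 1.5% higher), and 1 after immobilization, Pdp1, against 2.94% of all genes (1.29% lower and 1.65% higher). Unadjusted p-values under 0.05 were reached by 9 and 11 genes there, against 2136 and 2637 of all 13705 genes tested. These comparisons share their WT libraries within a set and treatment.

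Pdp1 was lower in Sesn2SkM-Tg than in WT muscle in both states. Basal values were 48.6, 22.2, 38.9 and 43.9 against 108, 111, 105 and 117 in WT muscle, a log2 fold change of -1.55 (SE 0.24, adjusted p = 0.000718). Immobilized values were 35.4, 16.8, 33.6 and 31.7 against 63.7, 74.8 and 92.4, a log2 fold change of -1.40 (SE 0.26, adjusted p = 0.00636). The highest Sesn2SkM-Tg library lay below the lowest WT library in each state, and replicate 2 was the lowest of both Sesn2SkM-Tg groups. Left out in turn, no library removed either call, with adjusted p-values (limma) of at most 0.00312 and 0.047. Sesn1SkM-Tg muscle of the same set had 85.6, 103, 96.4 and 75.6 before and 136, 95.0 and 67.6 after immobilization. All 4 basal values lay below all 4 of WT muscle, and the difference was not called in limma (log2 fold change -0.30, SE 0.24, adjusted p = 0.9999). Pdp1 was the 1 gene of the 39 without overlap in that comparison (2.56% of the 39), close to the 2.71% of all genes without overlap. The immobilized values overlapped those of WT muscle. Bckdhb, the E1 beta subunit of the branched-chain complex, stood at 15.8, 14.4, 14.1 and 13.3 in basal Sesn2SkM-Tg muscle against 26.3, 26.3, 22.2 and 28.0 in WT muscle, without overlap, a log2 fold change of -0.79 (SE 0.15, adjusted p = 0.00665). After immobilization it stood at 15.4, 10.6, 11.3 and 16.6 against 23.1, 22.6 and 16.7 and was not called (log2 fold change -0.60, SE 0.17, adjusted p = 0.0521). In Sesn1SkM-Tg muscle it stood at 26.2, 20.4, 23.0 and 27.7 against 20.97, 17.4 and 14.02, basal and immobilized. Basal Sesn1SkM-Tg and WT values overlapped. Nnt was higher in Sesn2SkM-Tg than in WT muscle in both states, and its part in these differences was not tested.

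In Sesn1KO mice Pdp1 was called lower after immobilization and not in the basal state. Basal libraries had 119.8, 100.3, 114 and 91.2, spanning the WT range, with a difference of 0.049 (SE 0.11, adjusted p = 0.9997) from WT muscle. Immobilized libraries had 41.3, 47.4, 50.1 and 57.8 against 93.0, 98.7, 88.8 and 88.8 in WT muscle, a difference of -0.90 (SE 0.11, adjusted p = 4.98e-05), and the groups did not overlap. Sesn1 itself overlapped between these 2 groups, as given above. The log2 fold change of Pdp1 on immobilization was -1.10 in Sesn1KO muscle, which was called, and the value in WT muscle was -0.14, which was not. In WT muscle of set 1 Pdp1 was lower after immobilization without overlap and was not called (log2 fold change -0.53, SE 0.26, adjusted p = 0.125, limma), and it was called there when only the compared groups were fitted. The sets were not tested against each other. The difference between these effects was -0.95 (SE 0.15, adjusted p = 0.0265) and was called, 1 of 3 genes of 13629 (0.022%). It was lost in limma when only the 4 groups compared were fitted (adjusted p = 0.0639), with the replicate number as a block (adjusted p = 0.0598) and in 10 of 16 fits that left out 1 library, with a size between -1.03 and -0.88. Bckdhb had 26.0, 25.0, 21.8 and 29.0 in basal and 15.96, 12.9, 13.8 and 15.4 in immobilized Sesn1KO muscle, and 18.6, 16.4, 16.3 and 17.5 in immobilized WT muscle of set 2. Immobilization lowered it in both genotypes (-0.77 and -0.54). For Sesn1SkM-Tg and Sesn2SkM-Tg muscle, 0 of the 39 genes were called in the difference of the immobilization effect from WT (0% and 0.0073% of all genes), with 0 and 2 at an unadjusted p under 0.05, against 401 and 1008 of all genes.

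Ratios of paired genes within a library, as differences of log2(value + 1), depend on the scale of the library only through the pseudocount. Of 36 comparisons of 6 ratios, none passed adjustment, and the smallest adjusted p was 0.103 (exact permutation test, two-sided). The smallest unadjusted p of this test that 4 against 4 or 3 against 4 libraries allow is 0.0286. For both shuttle pairs the ratio of the cytosolic to the mitochondrial form was lower in all 4 denervated than in all 4 basal libraries. The log2 ratio of Mdh1 to Mdh2 was -0.94 ± 0.048 in denervated and -0.33 ± 0.067 in basal WT muscle (SD, n = 4 each), a difference of -0.61, and that of Got1 to Got2 was -0.88 ± 0.115 against -0.19 ± 0.015, a difference of -0.69. Both had the smallest exact p that the design allows, 0.0286. The Got1 to Got2 ratio also differed by -0.50 after immobilization in WT muscle of set 2 and by -0.59 in Sesn1KO muscle. In set 1 it differed by -0.60 in WT and by -0.43 in Sesn1SkM-Tg muscle, but by 0.21 in Sesn2SkM-Tg muscle. The Mdh1 to Mdh2 ratio differed less after immobilization, by -0.18 in WT muscle of set 2 and by -0.30 in Sesn1KO muscle. In set 1 the Mdh1 to Mdh2 ratio differed by -0.21 in WT and -0.16 in Sesn2SkM-Tg muscle, but by 0.14 in Sesn1SkM-Tg muscle. The ratio of Sucla2 to Suclg2, the ATP-forming over the GTP-forming subunit, was 0.67 lower after denervation (1.92 ± 0.115 against 2.59 ± 0.127) and 0.21 higher after immobilization in WT muscle of set 2. The ratio of Pdp1 to Pdp2 differed by -1.24 after denervation and by 0.89 after immobilization in WT muscle of set 2, and with a pseudocount of 0.1 by -0.98 and 1.22. The ratio of the kinase Bckdk to the phosphatase Ppm1k was 0.91 higher after denervation (4.10 ± 0.214 against 3.20 ± 0.353), without overlap, and differed by between -0.29 and 0.40 after immobilization. The ratio of Pdk1 to Pdk2 differed by 0.24 after denervation (exact permutation p = 0.0857).

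**Figure D5:**
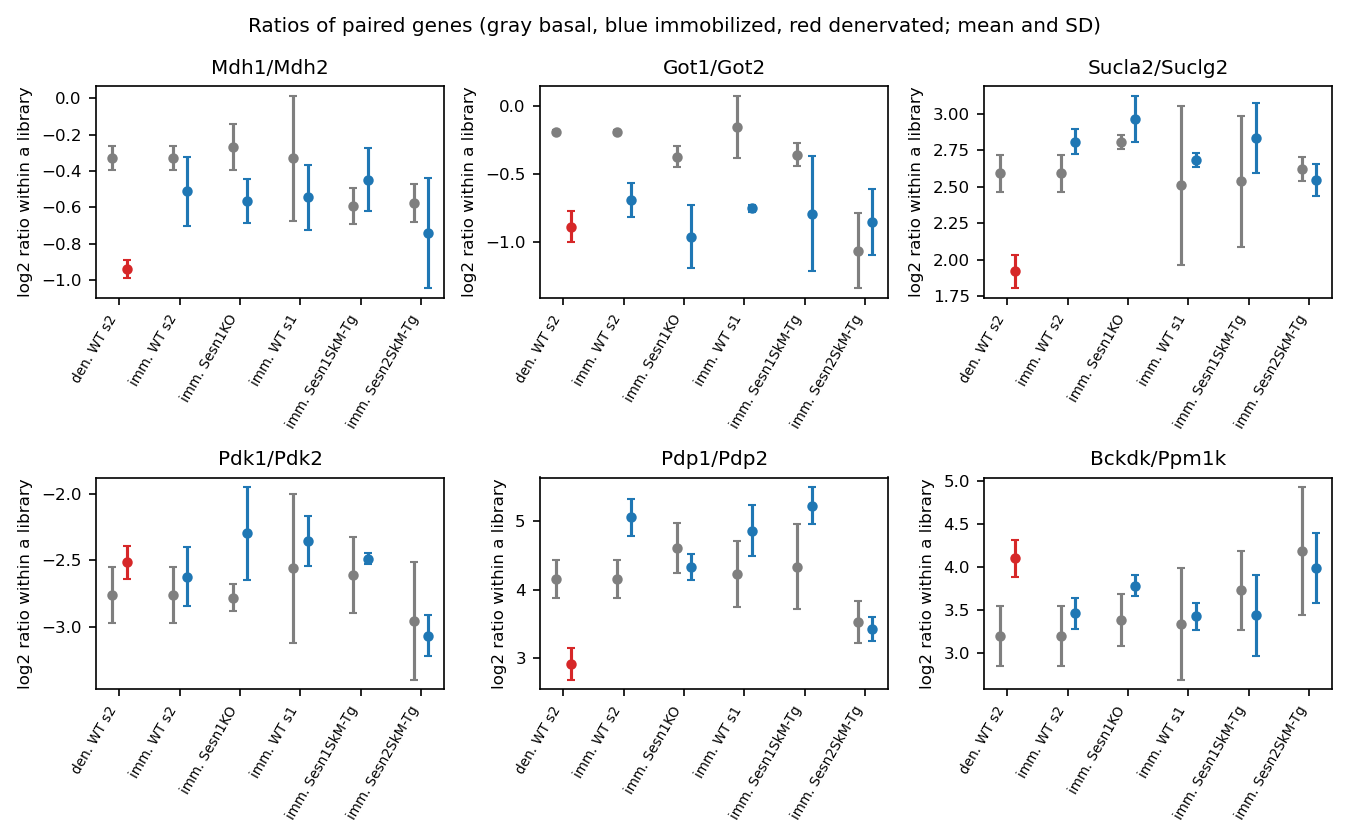
Log2 ratios of 6 gene pairs within a library (y axes, linear, own range each), as mean and SD of the basal (gray) and the denervated (red) or immobilized (blue) libraries in the 6 comparisons (x axis). Denervated muscle lies below basal muscle for Mdh1/Mdh2, Got1/Got2, Sucla2/Suclg2 and Pdp1/Pdp2 and above it for Bckdk/Ppm1k.

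Other genes of the same pathways, 42 of 43 listed that have a row, were described in the same way. After denervation 23 were called lower, 6 higher and 13 not called, with a median of -0.67. Of all genes 27.7% were called lower and 27.8% higher there. After immobilization 19 were called lower and 2 higher in WT muscle of set 1 (median -0.48), and 23 lower and 3 higher in WT muscle of set 2 (median -0.35). The shares of all genes were 14.5% lower and 14.9% higher in set 1, and 17.7% lower and 16.2% higher in set 2. In Sesn1SkM-Tg, Sesn2SkM-Tg and Sesn1KO muscle 18, 20 and 25 were called lower and 6, 2 and 3 higher. For all genes these were 16.5%, 15.7% and 19.9% lower and 18.2%, 15% and 17.2% higher. Oxct1, which activates ketone bodies, fell most after denervation (-2.12), followed by Slc25a11, the oxoglutarate carrier of the malate-aspartate shuttle (-1.62). Me2, a mitochondrial malic enzyme, and Slc25a13, an aspartate-glutamate carrier, were called higher after denervation, from low means of 2.98 ± 1.17 to 7.35 ± 1.25 and from 0.453 ± 0.349 to 1.53 ± 0.374 (SD, n = 4 each), with log2 fold changes of 1.10 and 0.82. Gpt, alanine aminotransferase, and Oxct1 fell most in immobilized WT muscle of set 1 (-1.25 and -1.20), where Pdk3 (1.09) and Me2 (0.74) rose. In immobilized WT muscle of set 2 Oxct1 (-1.08) and Mmab (-1.02), which serves the vitamin B12-dependent step after propionyl-CoA, fell most. There Pdk4, the kinase of pyruvate dehydrogenase known to rise on fasting, rose from 384 ± 89.6 to 821 ± 215 (SD, n = 4 each), with overlapping groups and a log2 fold change of 1.08 (SE 0.27, adjusted p = 0.00352), and Slc25a44, a mitochondrial carrier of branched-chain amino acids, rose by 0.59. Pdk4 thus moved against Pdk2 in that comparison, while it was not called in WT (-0.32) or Sesn1SkM-Tg muscle (-0.27) of set 1. It rose without overlap in Sesn1KO muscle, from between 209 and 495 to between 973 and 2046 (log2 fold change 2.24, SE 0.27, adjusted p = 1.41e-06, limma). It also rose without overlap in Sesn2SkM-Tg muscle, from between 122 and 372 to between 471 and 1081 (log2 fold change 1.61, SE 0.29, adjusted p = 0.000269, limma). Basal Sesn2SkM-Tg muscle had less Pdk4 than WT muscle, which held between 707 and 1079 (log2 fold change -2.22, SE 0.29, adjusted p = 0.000149, limma). The difference of the immobilization effect from WT was not called in limma for Sesn2SkM-Tg (log2 fold change 1.93, SE 0.42, adjusted p = 0.13) or Sesn1KO muscle (log2 fold change 1.16, SE 0.38, adjusted p = 0.425). No gene of this list was called in Sesn1SkM-Tg or Sesn1KO muscle against WT muscle, while 3 were called lower and 1 higher in basal Sesn2SkM-Tg muscle, and 1 in each direction after its immobilization.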

How the data were processed

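RNAseq libraries of TA muscle were made with the NEBNext Ultra RNA kit. Per the labels and the methods of the study, the authors checked reads with FastQC, trimmed adapters with Cutadapt 1.7.1, estimated expression with RSEM 1.2.20 against the mouse transcriptome (GRCm38) and normalized the counts with limma, edgeR also being named in the submitters' processing notes. The deposited normalized counts are a linear signal near the CPM scale, with no read depth. RSEM divides reads shared by similar transcripts, so near-identical copies are uncertain. Values look adjusted per gene between the sets, so comparisons were made within a set.

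Here limma 3.58.1 (R 4.3.3) was fitted on log2(value + 1) over all groups of a set, with an intensity trend in eBayes and Benjamini-Hochberg adjustment over all genes tested (13705 in set 1, 13629 in set 2). Genes below 1 in every library of a set were left out. The 16 comparisons used as threshold an adjusted p below 0.05 and a log2 fold change of 0.25 or more in size. The members and gene lists were chosen with earlier results of these data known. Values in every library are given for members among the 3 called with the largest change in each direction in a treatment comparison, members called where 5 or fewer were called between genotypes, Cs and the kinases and phosphatases. Of the other pathway genes, the 2 called with the largest change in each direction were named, after denervation and after immobilization of WT muscle. The alternatives were a pseudocount of 0.1, no filter, quantile normalization, equal library sums, median centring, the replicate number as a block, the compared groups only and each library left out. In data simulated on the denervation comparison (13629 genes), 173 of 200 genes changed by 1 log2 unit and 69 of 200 changed by 0.5 were recovered. In data simulated on immobilized WT muscle of set 1 (13705 genes), 140 and 1 of 200 were. Only 200 genes were changed in each simulation, while 55.5% and 29.3% of all genes were called in the 2 real comparisons. The adjustment was therefore stricter in the simulated data, and these counts do not give the sensitivity of the real fits. Gene positions came from GENCODE M21, matched by identifier for 13715 of 13809 genes.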

Additional observations from a re-analysis of the deposited data

Results flagged for a closer look

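Among 126 combinations of a group of 4 libraries with the 13 genes given in every library or with the summed share of the 39 genes, 6 had a single library far from the other 3 by Dixon's criterion, where chance alone gives about 1 in 20. In basal WT muscle of set 1, replicate 4 was high for Cs, at 1205 against 751 to 826 in the others, and for Pdk2, at 619 against 369 to 405. Cs was also high in replicate 4 of basal Sesn1SkM-Tg muscle, at 980.4 against 724 to 767. Idh2 was low in replicate 4 of basal WT muscle of set 2, at 94.8 against 206 to 212. Pdp2 was low in replicate 1 of immobilized Sesn1KO muscle, at 0.822 against 1.704 to 1.79. The share of the 39 genes was low in replicate 3 of basal Sesn2SkM-Tg muscle, at 1.00% against 1.08% to 1.09%.

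The immobilization effect on Pdp1 differed between Sesn1KO and WT muscle by -0.95 on the log2 scale (limma, adjusted p = 0.0265). All 4 immobilized Sesn1KO libraries lay below all 4 immobilized WT libraries, and the call was lost under several other settings.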

How the results depend on the processing

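Of 992 recomputed fold changes of named genes, 939 kept direction and call, 47 lost the call, 5 gained one and 1 changed sign. That was Pdp1 in immobilized Sesn1SkM-Tg muscle, at -0.16 without replicate 1 and 0.34 without replicate 3 of the immobilized group. With equal library sums the number of the 39 genes called was 20 in immobilized WT muscle of set 1, 19 in Sesn1SkM-Tg and 16 in Sesn2SkM-Tg muscle, 17 between denervated and immobilized muscle, and 4 (basal) and 3 (immobilized) between Sesn2SkM-Tg and WT muscle, and 11 genes were lower in all 5 immobilization comparisons (an alternative added after seeing the data). That step moves genes upward by construction where treated muscle, with its lower sums, is set against basal muscle, or denervated against immobilized muscle. Under it 2.47% of all genes were lower in all 5 immobilization comparisons. Of the single comparisons named here, all genes called under it are given above only for immobilized WT muscle of set 1. The other counts are therefore not set against all genes. Between immobilized Sesn2SkM-Tg and WT muscle, 2 genes were called with quantile normalization, with the replicate block and when the fit held the compared groups alone. For the comparisons of Sesn2SkM-Tg with WT muscle the cause was not tested. The Pdp1 call in the effect of Sesn1KO on immobilization was lost, leaving 0 genes, with the replicate block and with the compared groups alone.

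The median correlation of same-numbered libraries was 0.037 in set 1 and -0.029 in set 2, against 0.019 and 0.0075 for differently numbered ones. These medians show no pairing by replicate number. They cannot exclude it, since single correlations of same-numbered libraries ran from -0.45 to 0.53 in set 1. Beside these counts, the replicate block left 23 genes lower in all 5 immobilization comparisons and moved no other count by more than 1.5 times.

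Leaving out 1 library gave 37 to 38 genes after denervation. After immobilization it gave 22 to 32 in WT muscle of set 1, 30 to 32 in set 2, 19 to 31 in Sesn1SkM-Tg, 22 to 29 in Sesn2SkM-Tg and 33 to 34 in Sesn1KO muscle. It gave 27 to 30 between denervated and immobilized muscle, 1 between immobilized Sesn1KO and WT muscle, and 0 to 1 for the Sesn1KO effect on immobilization. Between Sesn2SkM-Tg and WT muscle it gave 2 to 5 in the basal state, with 5 without replicate 4 of the WT group, and 1 to 2 after immobilization, with 2 without replicate 4 of the Sesn2SkM-Tg group.

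Ratios that changed sign were near 0. With a pseudocount of 0.1, Pdp1/Pdp2 after immobilization was 0.032 in Sesn2SkM-Tg and 0.048 in Sesn1KO muscle. Leaving out 1 library gave -0.098 to 0.28 for Sucla2/Suclg2, -0.075 to 0.32 for Pdk1/Pdk2 and -0.072 to 0.39 for Bckdk/Ppm1k in WT muscle of set 1. In Sesn2SkM-Tg muscle it gave -0.31 to 0.0051 for Pdk1/Pdk2, -0.24 to 0.010 for Pdp1/Pdp2 and -0.40 to 0.18 for Bckdk/Ppm1k. Without read depth, no counting limit could be set for low genes such as Pdp2.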
